A study of Mus musculus with 4 samples.

Results

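Respiratory complex I is the NADH dehydrogenase of the mitochondrial inner membrane. It takes electrons from NADH, passes them along a chain of iron-sulfur clusters to ubiquinone, and pumps protons as it does so. The complex has an arm in the matrix, made of the NADH-oxidizing N module and the ubiquinone-reducing Q module, and an arm in the membrane with a proximal and a distal part. Core subunits carry out the catalysis, accessory subunits surround them, and assembly factors, many of them named Ndufaf, help to build the complex without being part of the finished enzyme. The soleus is a slow, oxidative hindlimb muscle and is rich in this enzyme.

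Complex I genes were taken as every gene whose symbol starts with Nduf in the table of RSEM expected counts from soleus. There were 45 such genes among the 24054 listed. By function they were 7 core subunits, 29 accessory subunits, 7 Ndufaf assembly factors and 2 others, Ndufa4 and Ndufa4l2. Ndufa4 keeps a complex I name but is now placed in complex IV, and Ndufa4l2 is its hypoxia-inducible paralogue. All 45 passed the filter on low counts. The core subunits encoded by the mitochondrial genome and the accessory subunit gene Ndufb1 were not analysed here.

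The samples were whole soleus muscles of mdx mice, which carry a dystrophin mutation and model Duchenne muscular dystrophy. All animals were female, on the C57BL/10ScSn background, and 8 weeks old when dosing began. The 2 mCDC samples came from mice given mouse cardiosphere-derived cells, a stromal heart cell grown from a donor mouse of the same background, by femoral vein once a month, and the 2 vehicle samples came from mice given the medium alone. Muscles were taken at the end of the 12-month study period, not at 12 months of age. Both groups were dystrophic, and no healthy mice were included. Library totals of expected counts ran from 22481391 to 27187425. No label says how many animals gave each sample, so p-values measure only the spread between these samples.

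The muscle label fitted the markers. Myh7, the slow myosin heavy chain, lay between 38237 and 47467 CPM (expected counts scaled to a common library size) in the 4 libraries. Libraries differed in other tissue content. The summed level of 8 fibroblast markers was 431 and 380 CPM after mCDCs and 414 and 695 CPM after vehicle, and 3 of the 8, Col1a2, Lum and Pdgfra, were called lower in the mCDC comparison (over 1.5-fold, unadjusted p under 0.05), beside 2.74% of all genes tested. Fitted fold changes were below 0 for 8 of 8 fibroblast and 8 of 8 endothelial markers. The 8 endothelial markers summed to 173 and 143 CPM against 133 and 308 CPM, and the 8 erythroid markers to 440 and 454 CPM against 392 and 720 CPM. Vehicle replicate 2 was the highest library for these 3 cell types, and none of these markers was at 0 in every library. It was also highest for the sums of macrophage (46.9 CPM) and Schwann cell markers (86.6 CPM). Adipocyte markers summed to 168 and 166 CPM after mCDCs and 202 and 231 CPM after vehicle. Single adipocyte genes differed in order. Fabp4 was at 115 and 114 CPM after mCDCs and 124 and 200 CPM after vehicle. Cfd was at 27.9 and 25.6 CPM after mCDCs and 44.6 and 13.3 CPM after vehicle. The mean log2 CPM of the 8 tested was highest in vehicle replicate 1 (3.22) and lowest in vehicle replicate 2 (1.75). The 9 markers of fast glycolytic fibres summed to 31195 and 21748 CPM after mCDCs and 23489 and 27551 CPM after vehicle. Their genes differed in order, with Myh4 at 2096 and 47.5 CPM against 163 and 411 CPM, and Tnnc2 at 4140 and 4411 CPM against 3083 and 5189 CPM. Fewer cells of a type and less RNA per cell cannot be told apart in whole muscle, and the part of these differences in the complex I values was not tested.

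No complex I gene passed the test between mCDC and vehicle. Genes were called at over 1.5-fold with an unadjusted p under 0.05 in edgeR's quasi-likelihood test, the thresholds of the study. Of 13652 genes tested, 1.26% were called with a higher level after mCDCs and 2.74% with a lower one, and 0 of the 45 Nduf genes were called in either direction. With Benjamini-Hochberg adjustment over all genes, 0% of genes passed in edgeR, while 947 had an unadjusted p under 0.05, and DESeq2 gave 48 genes with an adjusted p under 0.05. The adjusted p of the Nduf genes lay between 0.682 and 0.982 in edgeR. Ndufs5 was the 1 member with an unadjusted p under 0.05, or 1 of 45, beside 2.85% of all genes in that direction.

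The differences were small and lay on one side. The fitted log2 fold change was above 0 for 45 of 45 Nduf genes, against 48.4% of all genes tested, and ranged from 0.03 to 0.39 with a median of 0.14. The median over all genes was -0.01. The size depended on 1 library: without vehicle replicate 1 the fold change was above 0 for 29 of 45, and the median of the 36 subunits went from 0.15 to 0.03. Without vehicle replicate 2 that median was 0.28. With library totals alone as the scale, which put the median of all genes at -0.09, 35 of 45 were above 0.

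Individual libraries of the 2 groups overlapped for most members. Both mCDC libraries lay above both vehicle libraries for 18 of the 45 genes, against 19.2% of all genes tested. The opposite order, found for 19.5% of all genes, was found for none of the 45. The remaining 27 genes overlapped. Among subunits the groups did not overlap for 14 of 36, made of 5 of 7 core and 9 of 29 accessory subunits, and among assembly factors for 4 of 7.

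**Figure D1:**
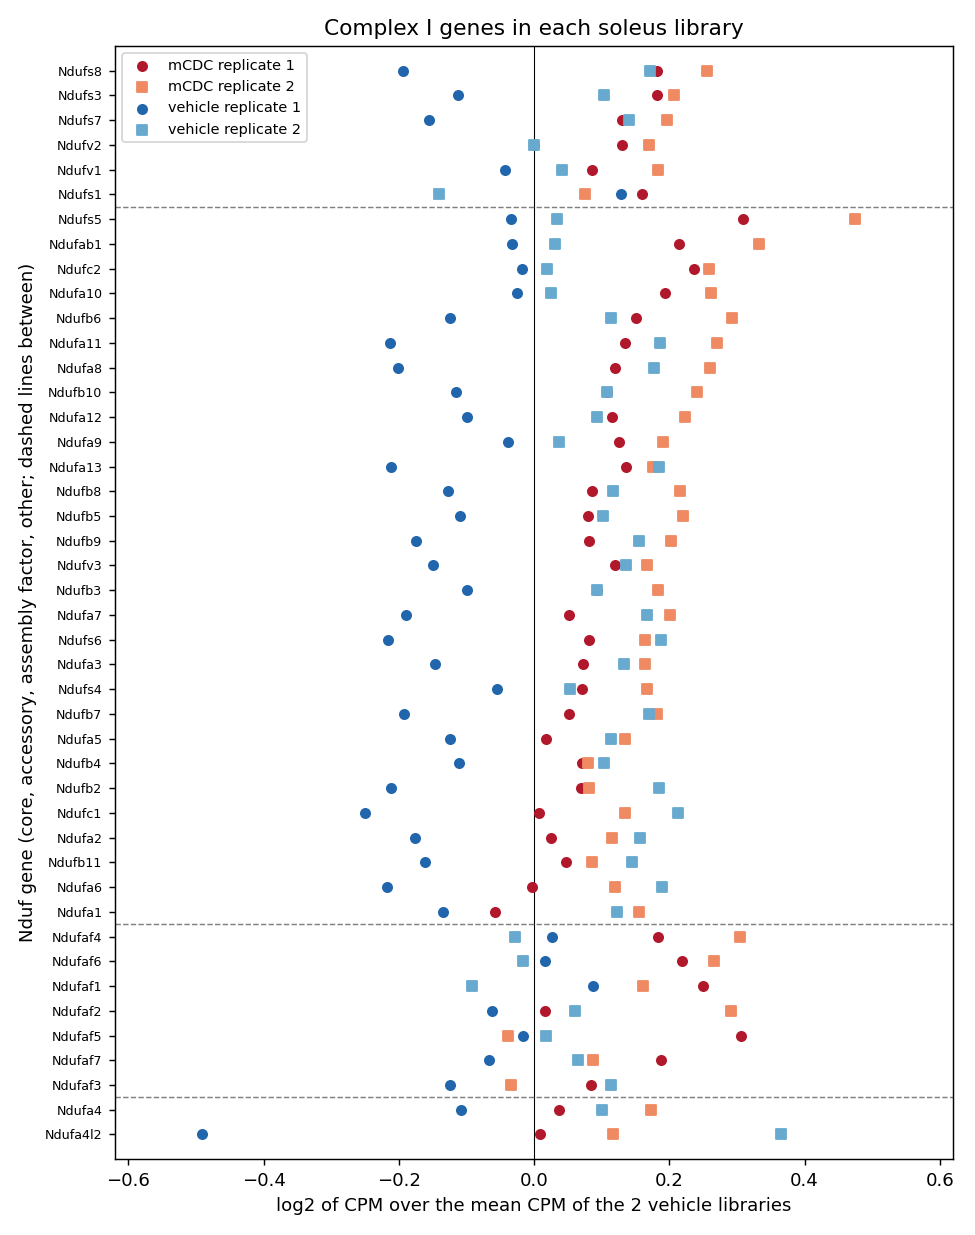
Each row is 1 of 44 Nduf genes and each mark a library, placed at the log2 of its CPM over the mean CPM of the 2 vehicle libraries, with red marks for mCDC, blue marks for vehicle, and dashed lines between core subunits, accessory subunits, assembly factors and others. Vehicle replicate 1 was the lowest library for every subunit drawn except Ndufs1, while vehicle replicate 2 often lay among the mCDC libraries.

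The vehicle libraries lay apart for most subunits. Vehicle replicate 1 was the lowest of the 4 libraries for 35 of 36 subunits, against 26.4% of all genes tested, and mCDC replicate 2 was the highest for 27. Vehicle replicate 2 was above vehicle replicate 1 by a mean of 0.23 on the log2 scale over the subunits. For 28 of the 36 this gap was larger than the difference between the group means. Mean log2 CPM over the subunits was 7.80 and 7.89 after mCDCs, against 7.57 and 7.80 after vehicle. These means overlapped between the groups, since mCDC replicate 1 and vehicle replicate 2 stood at the same value to 2 decimals.

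For assembly factors the vehicle gaps went both ways. Their mean log2 CPM was 4.42 and 4.39 after mCDCs, against 4.23 and 4.26 after vehicle, so that the groups did not overlap. Vehicle replicate 2 minus vehicle replicate 1 averaged 0.04 on the log2 scale, with single genes from -0.18 for Ndufaf1 to 0.24 for Ndufaf3, and the median log2 fold change was 0.16 over the 7 genes. As a sum, the 7 factors gave 163 and 159 CPM after mCDCs and 142 and 143 CPM after vehicle. The 36 subunits gave 9471 and 10042 CPM against 8128 and 9457 CPM.

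The genes of 1 enzyme differed in transcript level, and their order was stable. Per kilobase of transcript, the subunits ranged from 56.7 to 764 CPM, a 13.5-fold range. The rank correlation of this level between any pair of libraries lay between 0.977 and 0.992 over the 36 subunits, which share the same transcript lengths in each library. Core subunits had a median of 269 CPM per kilobase and accessory subunits 291. Assembly factors had a median of 12.6, which put subunits 22.3-fold above the factors that build them.

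**Figure D2:**
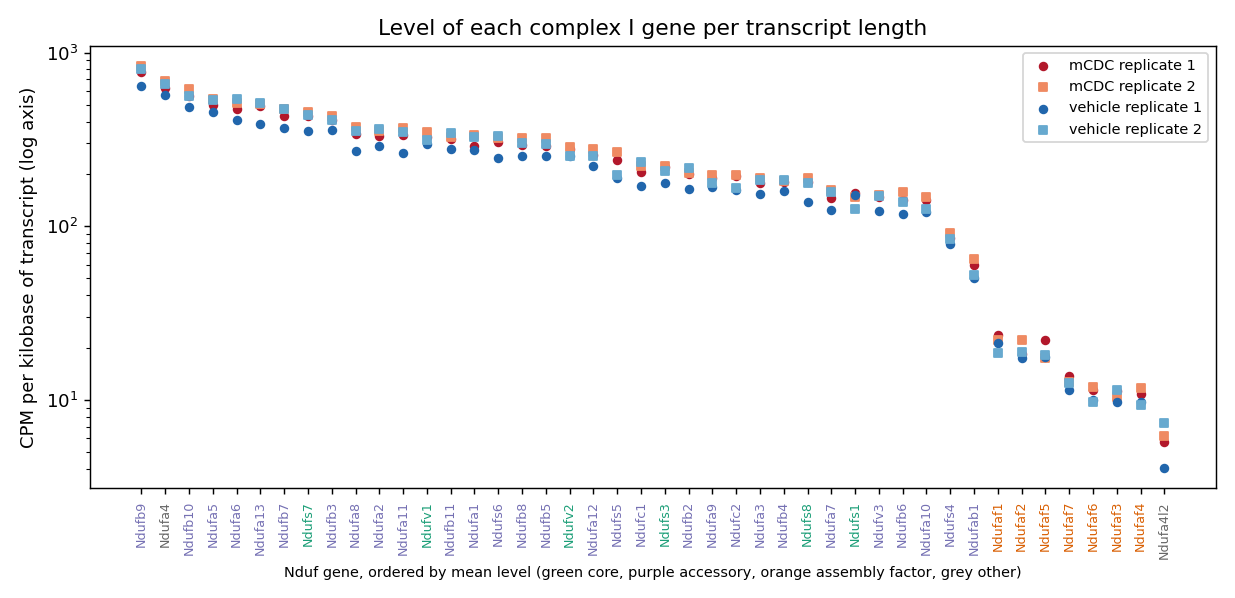
Each of 44 Nduf genes is placed from left to right by its mean CPM per kilobase of transcript (log axis), with 1 mark per library and gene names coloured by class. Subunits lie between 56.7 and 764 CPM per kilobase, and the 7 assembly factors lie between 10.4 and 21.4, with Ndufa4l2 lowest at 5.81.

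Ndufb9, a distal membrane arm subunit of the LYR protein family, had the highest level among subunits, 764 CPM per kilobase. It stood at 541 and 589 CPM after mCDCs and 453 and 570 CPM after vehicle. The groups overlapped, with a log2 fold change of 0.14 (SE 0.16). Ndufb10, a subunit of the distal membrane arm, followed at 559 CPM per kilobase, with 414 and 454 CPM against 354 and 414 CPM. Its mCDC libraries lay above the vehicle libraries by a narrow margin, with a log2 fold change of 0.18 (SE 0.14). Ndufa5, a Q module subunit, was at 508 CPM per kilobase, with 227 and 246 CPM against 206 and 243 CPM and overlapping groups. At the low end were Ndufab1 at 56.7, Ndufs4 at 85.1 and Ndufa10 at 134 CPM per kilobase. The transcript used for Ndufab1 has 3479 bases, the longest of the subunits. Ndufs4, an N module subunit whose loss causes Leigh syndrome, was at 146 and 156 CPM after mCDCs and 133 and 144 CPM after vehicle, and these did not overlap.

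The nuclear core subunits hold the flavin and the iron-sulfur clusters. In the Q module, Ndufs8, a carrier of iron-sulfur clusters, was at 158 and 166 CPM after mCDCs and 122 and 156 CPM after vehicle. Its log2 fold change of 0.22 (SE 0.15, edgeR adjusted p = 0.773) was the highest of the 7. Both mCDC libraries lay above both vehicle libraries, but vehicle replicate 2 was closer to the mCDC libraries than to its own replicate.

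Ndufs3, another Q module subunit, was at 228 and 233 CPM against 186 and 217 CPM, with no overlap and a log2 fold change of 0.19 (SE 0.14). Ndufs7, at the ubiquinone site, was at 328 and 344 CPM against 269 and 331 CPM. Vehicle replicate 2 of Ndufs7 lay between the mCDC libraries, so that its groups overlapped.

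In the N module, Ndufv1 binds the flavin and NADH. It was at 539 and 577 CPM after mCDCs and 493 and 523 CPM after vehicle, without overlap, and its log2 fold change was 0.13 (SE 0.13, edgeR adjusted p = 0.827). Ndufv2, the iron-sulfur partner of Ndufv1, was at 367 and 377 CPM against 335 and 335 CPM. It was the core subunit with the closest vehicle libraries, and its log2 fold change was 0.15 (SE 0.13). Ndufs1, the largest core subunit, was at 414 and 391 CPM against 405 and 336 CPM. Ndufs1 overlapped between groups and was the 1 subunit for which vehicle replicate 1 was above vehicle replicate 2.

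Ndufs5, a small accessory subunit of the proximal membrane arm on its intermembrane space side, had the largest fitted difference of the 45 with all libraries and no trend removed. With the length and GC trend removed Ndufaf4 (0.37) and Ndufab1 (0.36) were above Ndufs5 (0.33) on the log2 scale, and without vehicle replicate 2 Ndufa4l2 (0.55) was above it (0.43). Ndufs5 was at 126 and 141 CPM after mCDCs and 98.9 and 104 CPM after vehicle, or 133 ± 10.7 against 101 ± 3.36 (SD, n = 2 each). That is a 1.31-fold difference, under the 1.5-fold needed for a call, with a log2 fold change of 0.39 (SE 0.13). The unadjusted p was 0.0175 and the adjusted p 0.682 in edgeR's quasi-likelihood test. The vehicle libraries of Ndufs5 differed by 0.07 on the log2 scale, less than the group difference. With the length and GC trend removed, vehicle replicate 2 minus vehicle replicate 1 was -0.185, a wider gap in the other direction. Leaving out any 1 library gave a log2 fold change between 0.31 and 0.48. The expected counts of Ndufs5 were within 0.09 of whole numbers. RefSeq places Ndufs5 at chr4:123712710-123718186 (GRCm38, minus strand). The 150 bases before its start, chr4:123718187-123718336, are shown 5′ to 3′ on the gene's strand because this gene was the 1 member with an unadjusted p under 0.05; these 150 bases hold none of the 5 motifs listed further on, although AAGGTCA lies farther upstream, 228 bases before the start on the opposite strand:
Ndufs5 upstream: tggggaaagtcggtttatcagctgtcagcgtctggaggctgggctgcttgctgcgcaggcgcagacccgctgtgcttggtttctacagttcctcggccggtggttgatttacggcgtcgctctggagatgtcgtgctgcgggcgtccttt

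The next 4 accessory subunits by log2 fold change are described for their size, and a high fold change favours separated groups, as in these 4 (19.2% of all genes tested). Ndufab1, the mitochondrial acyl carrier protein, was at 207 and 225 CPM after mCDCs and 175 and 182 CPM after vehicle, a log2 fold change of 0.27 (SE 0.13, edgeR adjusted p = 0.724). Ndufc2, in the membrane arm, was at 133 and 134 CPM against 111 and 114 CPM, and both of its pairs of libraries were close. Ndufa10, on the matrix side of the proximal membrane arm, was at 284 and 298 CPM against 244 and 253 CPM, a log2 fold change of 0.23 (SE 0.13). Ndufb6, in the distal membrane arm, was at 93.5 and 103 CPM against 77.3 and 91.1 CPM, and here the vehicle libraries were far apart, by 0.24 on the log2 scale.

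At the other end, 5 accessory subunits had log2 fold changes from 0.05 to 0.07, each under its SE, and all 5 overlapped. Ndufa1, a short membrane subunit, was at 121 and 141 CPM after mCDCs and 115 and 137 CPM after vehicle. Ndufa6, an N module subunit of the LYR family, was at 279 and 304 CPM against 240 and 319 CPM. Ndufb11, in the distal membrane arm, was at 290 and 298 CPM against 251 and 311 CPM. In Ndufa6 and Ndufb11 the vehicle libraries were at once the lowest and the highest of the 4.

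Ndufa2, an N module subunit, was at 189 and 202 CPM against 165 and 208 CPM. Ndufc1, with the shortest transcript of the subunits at 315 bases, was at 64.4 and 70.3 CPM against 53.9 and 74.3 CPM, and its vehicle libraries differed by 0.46 on the log2 scale. All 5 were below 0 in a fit without vehicle replicate 1, at -0.07 for Ndufa1, -0.13 for Ndufa6, -0.07 for Ndufb11, -0.08 for Ndufa2 and -0.14 for Ndufc1.

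By position in the complex, medians of the log2 fold change lay between 0.13 and 0.19. The Q module (6 genes) had a median of 0.16, the N module (10) 0.13, the proximal membrane arm (9) 0.19 and the distal membrane arm (10) 0.14. The groups did not overlap for 4 Q module, 4 N module, 3 proximal and 2 distal genes, beside 19.2% of all genes tested, and the distal share was near that background. The difference between modules was not tested.

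Of the assembly factors, Ndufaf4, which stays with the Q module during assembly, was at 39.1 and 42.5 CPM after mCDCs and 35.1 and 33.8 CPM after vehicle. Its log2 fold change was 0.24 (SE 0.14, edgeR adjusted p = 0.747). Ndufaf3, its binding partner, was at 16.7 and 15.4 CPM against 14.5 and 17.1 CPM, with a log2 fold change of 0.03 (SE 0.17), the smallest of all 45. Ndufaf4 was separated between the groups, whereas the vehicle libraries of Ndufaf3 lay on either side of its mCDC libraries, and the difference between both genes was not tested.

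Ndufaf1, a member of the membrane-arm assembly complex that also holds Acad9 and Ecsit, was at 32.6 and 30.7 CPM against 29.2 and 25.8 CPM. Ndufaf6, an early-acting factor, was at 12.4 and 12.8 CPM against 10.8 and 10.5 CPM. Ndufaf7, a mitochondrial arginine methyltransferase, was at 23.9 and 22.2 CPM against 20 and 21.9 CPM. These 3 did not overlap between groups, Ndufaf7 by a narrow margin, and with Ndufaf4 they made 4 of 7, beside 19.2% of all genes tested.

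Ndufaf2, a late factor and paralogue of Ndufa12, was at 12.5 and 15.1 CPM against 11.8 and 12.8 CPM. Ndufaf5, which hydroxylates Ndufs7, was at 25.8 and 20.3 CPM against 20.6 and 21.1 CPM. Both overlapped, and without mCDC replicate 1 the log2 fold change of Ndufaf5 went from 0.14 to -0.04. Ndufaf8, listed under its older symbol and so outside the 45, was at 20.5 and 20.7 CPM against 18.8 and 20.8 CPM, with overlap.

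The paralogues outside the complex also overlapped. Ndufa4 was at 382 and 420 CPM after mCDCs and 346 and 399 CPM after vehicle. Ndufa4l2 was at 5.34 and 5.76 CPM against 3.78 and 6.84 CPM, the widest gap between vehicle libraries of any of the 45, at 0.84 on the log2 scale. The other 15 accessory subunits had log2 fold changes from 0.08 for Ndufb2 to 0.20 for Ndufa11, and the groups did not overlap for 2 of them, Ndufa12 and Ndufa9, a share below the 19.2% of all genes tested.

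Complex I assembly also needs factors with other names. Of 12 such genes tested, 0 were called, 11 had a log2 fold change above 0 and 8 had both mCDC libraries above both vehicle libraries, with a median log2 fold change of 0.15. The shares over all genes tested were 1.26% called higher, 2.74% called lower, 48.4% above 0 and 19.2% with that order of libraries. Nubpl, which delivers iron-sulfur clusters to the complex, was highest at 5.42 and 4.89 CPM after mCDCs and 4.20 and 3.67 CPM after vehicle, a log2 fold change of 0.39 (SE 0.23, edgeR adjusted p = 0.747). Dmac2, listed as Atp5sl and acting on the distal membrane arm, was lowest at 51.1 and 44.1 CPM against 49.4 and 53.9 CPM.

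Groups of genes outside complex I lay on the same side, with medians of a like size. Medians of the log2 fold change were 0.17 for complex II (4 genes), 0.18 for complex III (9), 0.16 for complex IV (13), 0.15 for complex V (15), 0.16 for mitochondrial ribosomal proteins (77) and 0.19 for cytosolic ribosomal proteins (82). Fold changes were above 0 for every tested gene of complexes II, III and V and of the mitochondrial ribosome, for 11 of 13 in complex IV and for 80 of 82 cytosolic ribosomal protein genes, against 48.4% of all genes. The complex IV list was made by symbol and did not include Cox6c or Cox7c. Its genes below 0 were Cox4i2 (-0.08) and Cox7a2l (-0.003). Both mCDC libraries lay above both vehicle libraries for 3 of 4 genes of complex II, 5 of 9 of complex III, 1 of 13 of complex IV, 6 of 15 of complex V, 56 of 77 of the mitochondrial ribosome and 23 of 82 of the cytosolic ribosome, against 19.2% of all genes. In 12 genes used as signs of mitochondrial mass, including Cs, Vdac1 and Tomm20, the median was 0.21 and all 12 were above 0. Cs, citrate synthase, was at 921 and 828 CPM after mCDCs and 830 and 691 CPM after vehicle, with overlap. Complex II and the mitochondrial mass genes did not share the vehicle gap of the complex I subunits, with vehicle replicate 2 minus vehicle replicate 1 at -0.02 and -0.08 on the log2 scale.

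**Figure D3:**
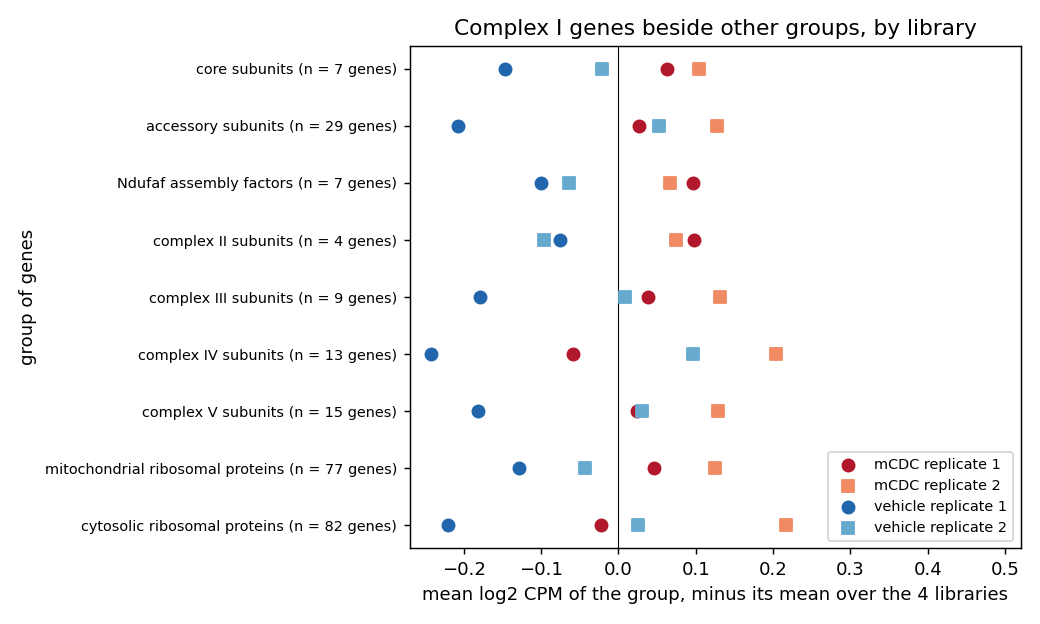
For each group of genes, the mean log2 CPM in each library is drawn as its distance from the group's mean over the 4 libraries. Of the 9 groups drawn, vehicle replicate 1 lies lowest for all but complex II, and vehicle replicate 2 lies above mCDC replicate 1 for accessory subunits, complex IV, complex V and cytosolic ribosomal proteins.

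The gap between libraries of a group followed transcript length within complex I, in vehicle and, less strongly, in mCDC. Spearman's rank correlation between transcript length and the vehicle gap was -0.61 over the 45 genes. It was -0.21 over the 13540 genes tested that had a length. For mCDC replicate 2 minus mCDC replicate 1 it was -0.47 and -0.08. All are descriptions over genes that share their libraries. Median vehicle gaps were 0.31 for the 18 shortest subunits (315 to 763 bases) and 0.20 for the 18 longest (838 to 3479 bases). The median log2 fold change between mCDC and vehicle was 0.13 and 0.15 in these sets, and the groups did not overlap for 4 of the shortest, a share near the 19.2% of all genes tested, and for 10 of the longest. The same rank correlation between length and the group difference was 0.30 over the 45 genes and -0.26 over all genes.

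**Figure D4:**
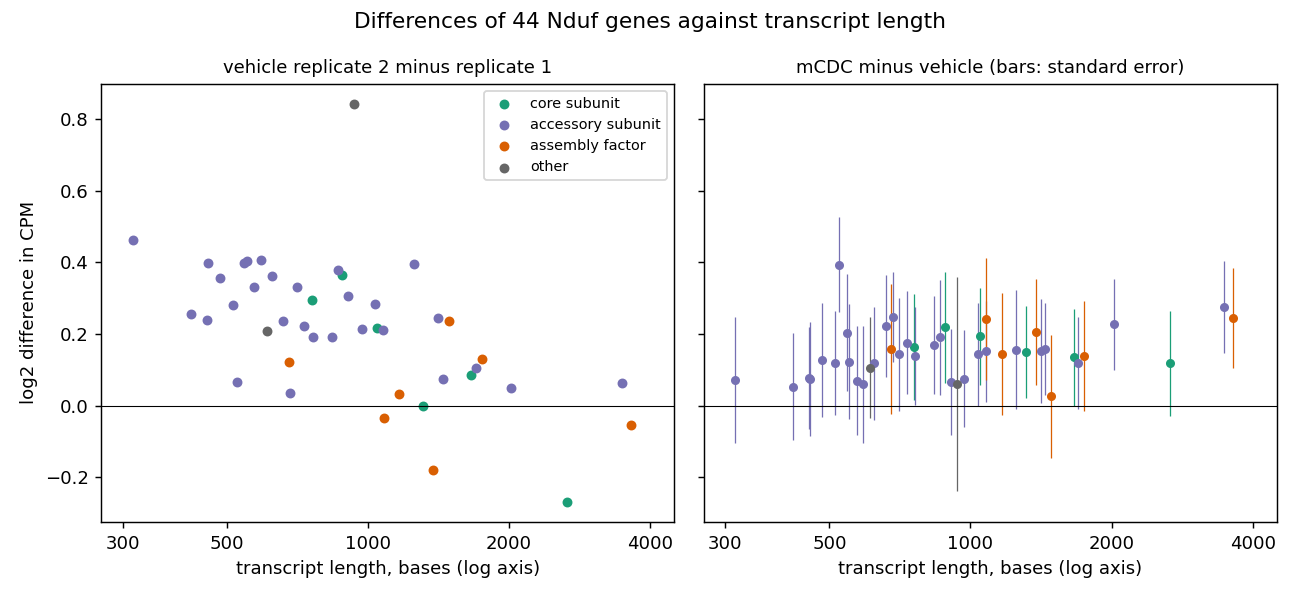
Transcript length in bases (log axis) is plotted against the log2 difference between the vehicle libraries (left) and against the fitted log2 fold change with its standard error (right) for 44 of the 45 Nduf genes, coloured by class. The gap between vehicle libraries falls from short to long transcripts (rank correlation over all 45 genes -0.61), and the group differences do not (0.30).

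Removing the trend of each library with transcript length and GC content brought the vehicle libraries closer on average over the subunits, though not for Ndufs5. The mean gap over the subunits went from 0.23 to 0.05, and the median of their fold changes went from 0.15 to 0.12, beside 0.03 for all genes. Mean log2 values over the subunits were then 7.79 and 7.85 after mCDCs, against 7.68 and 7.73 after vehicle, without overlap. The groups did not overlap for 32 of the 45 genes, against 22.8% of all genes on the same scale, made of 6 core and 20 accessory subunits, 5 assembly factors and 1 other. Ndufs5, Ndufab1 and Ndufaf4 had an unadjusted p under 0.05 there, 3 of 45 beside 3.74% of all genes, with edgeR adjusted p of 0.746, 0.731 and 0.731. No Nduf gene was called. Part of the closer spacing follows from the correction itself, and whether the trend came from the libraries or the tissue was not tested.

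**Figure D5:**
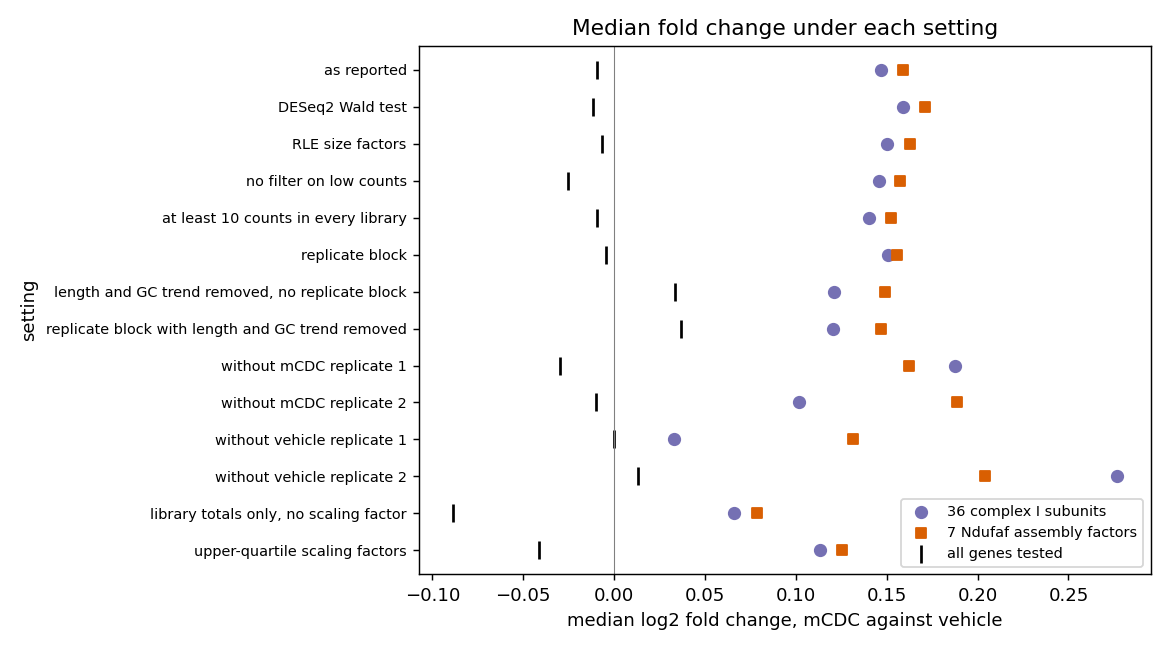
Median log2 fold changes between mCDC and vehicle are drawn for the 36 complex I subunits, the 7 Ndufaf assembly factors and all genes tested, with 1 row per way of processing. Subunit medians lie above those of all genes in every row, from 0.03 without vehicle replicate 1 to 0.28 without vehicle replicate 2.

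The promoters of complex I genes were searched because fold changes of these genes lay on the same side. RefSeq sequence (GRCm38.p6) from 250 bases before to 50 after the start was at hand for 39 of the 45 genes, and 5 motifs were searched on both strands. AAGATGGC, bound by YY1, was found in 7 of 32 subunits, or 21.9%, against 5.06% of the 10200 tested genes with such a window and 3.19% of all 27025. In each of the 7 it lay between 23 and 39 bases after the start and on the gene's strand. These positions are in transcribed sequence, and the motif holds ATG, the letters of a start codon. Whether the matches lie at start codons was not tested. The 7 sites are shown with the motif in capitals, because YY1 was the motif with the largest share among subunits relative to all tested genes:
Ndufs7, chr10:80249463-80249490 (+): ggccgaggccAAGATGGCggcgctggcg
Ndufs4, chr13:114388045-114388072 (-): gtttgcctacaggAAGATGGCggcggtc
Ndufs6, chr13:73328433-73328460 (-): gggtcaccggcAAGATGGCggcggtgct
Ndufa3, chr7:3617385-3617412 (+): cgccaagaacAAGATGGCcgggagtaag
Ndufa9, chr6:126849098-126849125 (-): attgtgggagAAGATGGCggccgccgtc
Ndufb8, chr19:44555393-44555420 (-): aaccgcggagaaggtgAAGATGGCtgcc
Ndufc1, chr3:51408916-51408943 (-): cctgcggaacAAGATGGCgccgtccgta

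CGCATGCG, bound by NRF1, a regulator of nuclear genes for the respiratory chain, was found in 2 of 32 subunits, or 6.25%, and in 2 of 6 assembly factors, against 4.15% of tested genes. Its 4 sites are shown in the same way, because this regulator is the best known of those searched for respiratory chain genes:
Ndufa8, chr2:36049330-36049357 (-): tcgctggagaCGCATGCGcagatggtac
Ndufa11, chr17:56717693-56717720 (+): ctgcactgcgCGCATGCGcgcacgcctt
Ndufaf4, chr4:24897961-24897988 (+): cagatgtctgCGCATGCGcctgtgcgga
Ndufaf5, chr2:140170653-140170680 (+): gtcccgttggCGCATGCGcctaatagaa

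The motif AAGGTCA of estrogen-related receptors was found in 9.38% of subunits and 3.94% of tested genes. CCGGAAG, bound by ETS factors, was found in 12.5% of subunits and 18.7% of tested genes, and GGGCGG, bound by SP1, in 46.9% and 67.4%. These matches describe letters in a window and were not tested as binding sites. Genes with the YY1 motif had log2 fold changes between mCDC and vehicle from 0.07 for Ndufc1 to 0.16 for Ndufs7, and the groups did not overlap for 2 of the 7, Ndufs4 and Ndufa9, beside 14 of 36 subunits and 19.2% of all genes tested.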

How the data were processed

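Per the labels and the study's methods, RNA of 4 mdx soleus muscles was sequenced as single-end reads. The authors mapped reads to a UCSC transcript set (genome build mm10) with Bowtie2 2.1.0 and deposited RSEM 1.2.15 expected counts per gene, not normalized. The sources name different library kits, so strand was not assumed. No row names a mitochondrial gene.

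Expected counts were rounded and fitted over all 13652 genes that passed edgeR's filterByExpr (edgeR 4.0.16, R 4.3.3) with TMM scaling, group as the only term and a quasi-likelihood F-test. Each SE was taken from the fold change and its F statistic, as the size of the first over the root of the second. CPM use TMM-scaled library sizes. Adjusted p-values are Benjamini-Hochberg over all genes tested. An exact permutation test of 2 against 2 samples cannot go below p = 0.333. Totals were 22481391 to 27187425 counts per library, and both counting error, larger for genes of low count, and the number of samples limit precision; they were not separated here.

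CPM per kilobase used the median length of a gene's RefSeq-paired GENCODE M21 transcripts. A length and GC trend was removed through spline offsets. The script was tested on simulated data. Reads of Ndufs1, Ndufs5, Ndufa7, Ndufa13 and Ndufaf7 were in part split with other genes, as their expected counts are not whole. Over all genes tested, same-numbered samples did not deviate together (correlation -0.04).

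Members and lists were chosen with earlier results of these data known. Kinases, a binding protein and pseudogenes with Rpl or Rps symbols were removed from the cytosolic ribosomal list after values were seen. Named genes were the core subunits (1 is not reported here), assembly factors and others, the 5 highest and 5 lowest accessory subunits by fold change, the 3 highest and 3 lowest by level, and the highest and lowest of the other assembly genes; Ndufaf8, Cs and other names were added after values were seen. Alternatives were DESeq2 1.42.0, RLE factors, 2 other filters, a replicate block, the trend removal and leaving out each library; 2 scalings were chosen after seeing the data.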

Additional observations from a re-analysis of the deposited data

How the results depend on the processing

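No Nduf gene was called under any of the 13 alternatives. The median log2 fold change stayed above 0 for subunits and for assembly factors in all of them. Leaving out 1 library at a time gave 112 to 396 genes called higher (172 with all libraries) and 237 to 834 called lower (374), with both lowest counts without mCDC replicate 2. It gave 29 to 44 Nduf genes above 0, subunit medians of 0.033 to 0.277 and assembly factor medians of 0.132 to 0.204. The assembly factor median was 0.0786 with library totals only and 0.126 with upper-quartile factors, both scalings chosen after seeing the data. Calls were 31.5% higher as reported, 19.2% with library totals only and 42.6% (209 of them higher, 282 lower) with the length and GC trend removed. Signs turned for single genes whose fold change was under its SE. With library totals only these were Ndufaf3 (-0.0552), Ndufa4l2 (-0.0248), Ndufa1 (-0.0285), Ndufa6 (-0.0233), Ndufb11 (-0.0153), Ndufa2 (-0.0117), Ndufc1 (-0.0114), Ndufb2 (-0.0077), Ndufb4 (-0.0059) and Ndufa5 (-0.0039). Ndufaf3 also turned with upper-quartile factors (-0.0075) and with the trend removed (-0.0244). Leaving out 1 library gave ranges that crossed 0 for Ndufaf5 (-0.0382 to 0.307), Ndufaf3 (-0.084 to 0.149), Ndufs1 (-0.0114 to 0.263), Ndufa4l2 (-0.299 to 0.552), Ndufa1 (-0.0657 to 0.186), Ndufa6 (-0.126 to 0.276), Ndufb11 (-0.0741 to 0.226), Ndufa2 (-0.0822 to 0.245), Ndufc1 (-0.137 to 0.321), Ndufb9 (-0.0084 to 0.317) and Ndufa5 (-0.0328 to 0.201). Among members not singled out for their values, 7 more were below 0 without vehicle replicate 1, from -0.106 for Ndufb2 to -0.0101 for Ndufa3, the others being Ndufs6, Ndufb7, Ndufa7, Ndufa13 and Ndufb4. The cause was not tested. With a replicate block, 172 genes were called higher and 309 lower, the subunit median was 0.15 and 45 of 45 Nduf genes were above 0, while the block with the length and GC trend removed gave a subunit median of 0.12 and Ndufaf3 at -0.0264. Over all genes tested, deviations of same-numbered samples were not correlated (-0.04). For the 36 subunits, replicate 2 was above replicate 1 in both groups, by a mean log2 difference of 0.23 (vehicle) and 0.09 (mCDC). Whether replicate numbers pair the samples was not tested.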
